A study of Mus musculus with 3 samples.

Results

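*Myc*, *Mycn*, *Max*, *Pim1*, *Pim2* and *Pim3* were followed by their deposited reads and RPKM in the endoderm, mesoderm and epiblast of ICR mouse embryos at E7.5. Out of 17633 genes that had reads in at least 1 library, these 6 were listed by symbol and chosen by their measured reads and RPKM in the same 3 libraries, so their levels and ratios below are a description and carry no p-value. The 3 libraries were 1 of endoderm, 1 of mesoderm and 1 of epiblast, without any treatment or genetic change, and no difference between them has a replicate check. Each layer was separated by hand after an enzyme digestion of the embryos, its RNA came from many embryos pooled, and the epiblast fraction also held the neuroectoderm and the primitive streak. RPKM is a read count per kilobase of gene length and per unit of library size.

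MYC and MYCN are basic helix-loop-helix leucine zipper factors that bind DNA as partners of MAX, at the E-box, and raise genes for ribosome production, metabolism and cell cycle entry. PIM1, PIM2 and PIM3 are serine/threonine kinases that need no activating phosphorylation by another kinase, so that their amount is set largely by transcription and protein turnover, often downstream of cytokine receptors and STAT factors. They phosphorylate proteins that control survival and translation and are known as partners of MYC in lymphoma. *Mycn* is the main *Myc* gene of many embryonic progenitors, and mouse embryos without *Myc* or without *Mycn* die in mid-gestation.

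The libraries held between 40.8 and 42.7 M uniquely mapped reads on genes. The germ layer labels were compared with marker genes. Summed over 7 endoderm markers, RPKM was 4136, 51.9 and 4.89 in endoderm, mesoderm and epiblast. Of the 7 mesoderm markers 6 were highest in mesoderm, and *Msgn1* was higher in epiblast. All 7 epiblast markers were highest in epiblast, with a summed RPKM of 279, 302 and 1596 in endoderm, mesoderm and epiblast. Of 7 trophoblast markers, *Tpbpa*, *Prl2c2* and *Prl3d1* had no reads in any library, and the summed RPKM of the list was 27.4, 7.56 and 2.65 in the same order. Over 7 primitive erythroid markers it was 3.39, 4.44 and 0.987, with *Hba-x* and *Hbb-y* among those without reads in all 3 libraries. For decidua it was between 0.335 and 1.22, all of it *Pgr*, with no reads for *Prl8a2* and *Prl3c1*. The part of these cell types in the levels of the 6 genes was not tested. In libraries of whole layers, fewer cells of a type and less RNA per cell cannot be told apart.

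The bases in front of 3 of the genes are printed from RefSeq (GRCm38.p6), because the letters that MYC with MAX, octamer factors or E2F factors read occur in them. Of the 6 genes 5 were matched in the table of promoters, which spans 250 bases before to 50 bases after each start site, and *Pim1* has 2 entries there. Printed stretches of *Pim2* and *Mycn* end before the first annotated start, and capitals mark the octamer ATGCAAAT on either strand in *Pim2* and TTTGGCGC in *Mycn*. The *Max* stretch spans its start site, with the E-box CACGTG in capitals.
Pim2, chrX:7878056-7878261, plus strand: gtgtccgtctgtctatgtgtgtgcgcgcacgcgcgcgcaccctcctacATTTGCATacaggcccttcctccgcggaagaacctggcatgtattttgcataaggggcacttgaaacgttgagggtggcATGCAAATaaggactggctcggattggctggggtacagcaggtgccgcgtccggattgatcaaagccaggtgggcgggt
Mycn, chr12:12941915-12942086, minus strand: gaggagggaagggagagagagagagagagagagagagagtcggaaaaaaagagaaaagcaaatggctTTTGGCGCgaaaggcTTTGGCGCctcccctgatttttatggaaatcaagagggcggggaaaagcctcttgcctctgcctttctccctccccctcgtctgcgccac
Max, chr12:76962234-76962263, minus strand: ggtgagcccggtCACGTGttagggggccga

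The E-box CACGTG was found at the start of *Max*, from 3 bases before it, and at 58 bases before the second, internal start of *Pim1*, and 7.15% of all 32851 promoters hold it on either strand. Its letters were not found in the windows of *Mycn*, *Pim2*, *Pim3* or the first start of *Pim1*. TTCNNNGAA, the letters read by STAT factors, was in none of the windows of the 5 genes and is in 8.30% of all promoters. The octamer is in the *Pim2* window at 202 and at 123 bases before the start, on opposite strands, against 1.74% of all promoters with at least 1 match and 0.107% with 2 or more. TTTGGCGC is in the *Mycn* window at 183 and at 168 bases before the start, against 0.514% of all promoters with at least 1 match. The last pair of motifs was picked after these sequences were read, and no binding was measured here. Counted over the full 300 bases, the share of G and C was 81.3% for the first *Pim1* start, 69.0% for *Pim3*, 64.7% for *Max*, 62.7% for *Pim2*, 56.7% for *Mycn* and 49.0% for the second *Pim1* start, with a median of 52.7% over all promoters.

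The 3 *Pim* genes lie apart from each other, at chr17:29490753-29496112 for *Pim1*, chrX:7878262-7883432 for *Pim2* and chr15:88862186-88865726 for *Pim3*, all on the plus strand of GRCm38 in the GENCODE M21 annotation. Their coding sequences were alike over 73.7% of aligned bases for *Pim1* and *Pim3*, 64.2% for *Pim2* and *Pim3* and 63.4% for *Pim1* and *Pim2*. The longest run of coding bases that *Pim1* and *Pim3* share is printed to show how short it is beside a window of 50 bases, and that of *Pim1* and *Pim2* is shorter still.
Pim1 and Pim3, 24 bases, chr17:29491917-29491940 and chr15:88863434-88863457, plus strand: caccgcgacatcaaggacgagaac
Pim1 and Pim2, 17 bases, chr17:29493808-29493824 and chrX:7882159-7882175, plus strand: ctctatgacatggtctg

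*Myc* (chr15:61985391-61990374, plus strand) and *Mycn* (chr12:12936093-12941914, minus strand) were alike over 60.6% of aligned coding bases, with a longest shared run of 12 bases. *Max* lies at chr12:76937269-76962201 on the minus strand. No window of 50 bases from the annotated transcripts of any of the 6 genes occurred in a paralog. *Myc*, *Mycn* and *Pim3* shared no such window with any other gene. *Max* shared 1 of 3620 windows with the pseudogenes *Gm3774* and *Gm9689*, and *Pim2* shared 43 of 2744, or 1.57%, with *Gm21182* and *Gm7645*. For *Pim1*, 299 of 3404 windows, or 8.78%, overlap the antisense transcript *Gm26885*. Whether counting used the strand is not given in the sources used here, so a part of the *Pim1* reads cannot be told apart from *Gm26885*.

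*Pim2* was the most uneven of the 6 genes. It had 842, 324 and 21001 reads in endoderm, mesoderm and epiblast, and RPKM values of 9.84, 3.86 and 239. Reads covered between 98.0% and 99.3% of its length in all 3 libraries. Epiblast stood far above both other layers, and mesoderm was the one library in which a gene of the 6 fell under RPKM 5. *Pim2* was 290th from the top among the genes with reads in epiblast, 6109th in endoderm and 8449th in mesoderm. The epiblast level was 62.0-fold that of mesoderm, with a 95% counting interval of 55.6 to 69.4, and 24.3-fold that of endoderm, with 22.7 to 26.1. The endoderm level was 2.55-fold that of mesoderm, with 2.24 to 2.91. Such intervals hold counting error only. The mesoderm to epiblast ratio was the 5th largest among the genes higher in epiblast, of 8340 tested in that pair, and the endoderm to epiblast ratio was the 36th, of 8843 tested.

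*Pim1* had 780, 837 and 957 reads in endoderm, mesoderm and epiblast, and RPKM values of 10.6, 11.6 and 12.7. The neighbouring levels in this order were apart by no more than counting error, since the 1.09-fold difference of mesoderm from endoderm had an interval of 0.991 to 1.21 and that of epiblast from mesoderm 0.996 to 1.20. *Pim3* had 1177, 1370 and 984 reads in the same order, with an RPKM of 11.7, 13.9 and 9.53. It was highest in mesoderm and lowest in epiblast, with a 1.46-fold difference and an interval of 1.34 to 1.58, which is the reverse of the *Pim2* order.

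*Myc* had 2312, 3275 and 903 reads in endoderm, mesoderm and epiblast, and RPKM values of 23.1, 33.4 and 8.81. It was lowest in epiblast. The mesoderm level was 3.79-fold the epiblast level, with an interval of 3.52 to 4.09, the endoderm level was 2.62-fold the epiblast level, with 2.43 to 2.84, and mesoderm was 1.44-fold above endoderm, with 1.37 to 1.52. *Mycn* had 1853, 8894 and 7406 reads, with an RPKM of 17.1, 83.9 and 66.8. It was lowest in endoderm, where *Myc* held a middle level, and high in the other layers. Mesoderm was 4.89-fold above endoderm for *Mycn*, with 4.65 to 5.15, epiblast was 3.90-fold above endoderm, with 3.70 to 4.10, and mesoderm was 1.26-fold above epiblast, with 1.22 to 1.29.

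*Max*, the shared partner, had 3766, 4509 and 3400 reads, with an RPKM of 45.1, 55.1 and 39.7. Its lowest and highest layers, epiblast and mesoderm, were apart by 1.39-fold, with an interval of 1.33 to 1.45. *Max* and *Pim3* had nearly the same profile over the 3 layers, at a distance of 0.08 on the log2 scale. That distance is the Euclidean one between the 3 log2 RPKM values of each gene after its own mean is taken off.

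**Figure D1:**
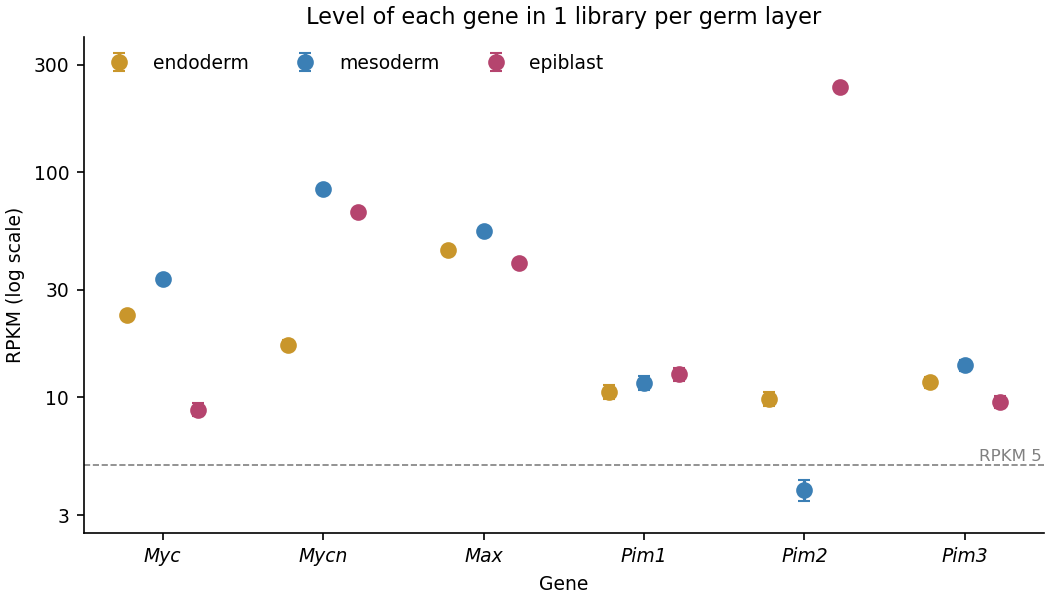
RPKM of the 6 genes on a log axis in endoderm, mesoderm and epiblast, 1 library each, where bars are the 95% counting interval of the reads and the dashed line marks RPKM 5. *Pim2* reaches 239 in epiblast and 3.86 in mesoderm, while *Max*, *Pim1* and *Pim3* stay within 1.46-fold.

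Within endoderm the order of RPKM was *Max*, *Myc*, *Mycn*, *Pim3*, *Pim1* and *Pim2*, and the counting intervals of *Pim3* and *Pim1* and those of *Pim1* and *Pim2* overlapped. In mesoderm *Mycn* came first, then *Max*, *Myc*, *Pim3*, *Pim1* and *Pim2*, with no overlap between neighbours. In epiblast the order was *Pim2*, *Mycn*, *Max*, *Pim1*, *Pim3* and *Myc*, and the intervals of *Pim3* and *Myc* overlapped.

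The paralogs were compared per length within each library. *Mycn* RPKM was 0.741 of *Myc* RPKM in endoderm, 2.51-fold *Myc* in mesoderm and 7.58-fold *Myc* in epiblast, with intervals of 0.696 to 0.788, 2.41 to 2.61 and 7.07 to 8.13. The leading gene of the pair was therefore *Myc* in endoderm and *Mycn* in mesoderm and epiblast. With *Mycl*, listed as *Mycl1* and the remaining gene of the family, the summed RPKM was 44.5, 125 and 88.1 in endoderm, mesoderm and epiblast. *Myc* made up 52.0%, 26.7% and 10.004% of it, *Mycn* 38.5%, 67.1% and 75.8%, and *Mycl1* 9.52%, 6.23% and 14.2%. Set against *Max*, the family sum was 0.987 of the *Max* RPKM in endoderm, 2.27-fold in mesoderm and 2.22-fold in epiblast.

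For the kinases, *Pim2* RPKM was 0.930 of *Pim1* RPKM in endoderm, with an interval of 0.842 to 1.03 that reaches equality. It was 0.333 of *Pim1* in mesoderm and 18.9-fold *Pim1* in epiblast. Summed over *Pim1*, *Pim2* and *Pim3*, RPKM was 32.1, 29.3 and 262 in endoderm, mesoderm and epiblast, where *Pim2* made up 30.7%, 13.2% and 91.5%. *Pim3* was the largest share in endoderm at 36.4% and in mesoderm at 47.3%, and 3.64% in epiblast. The sums of endoderm and mesoderm were apart by 1.10-fold, although *Pim2* itself was apart by 2.55-fold.

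**Figure D2:**
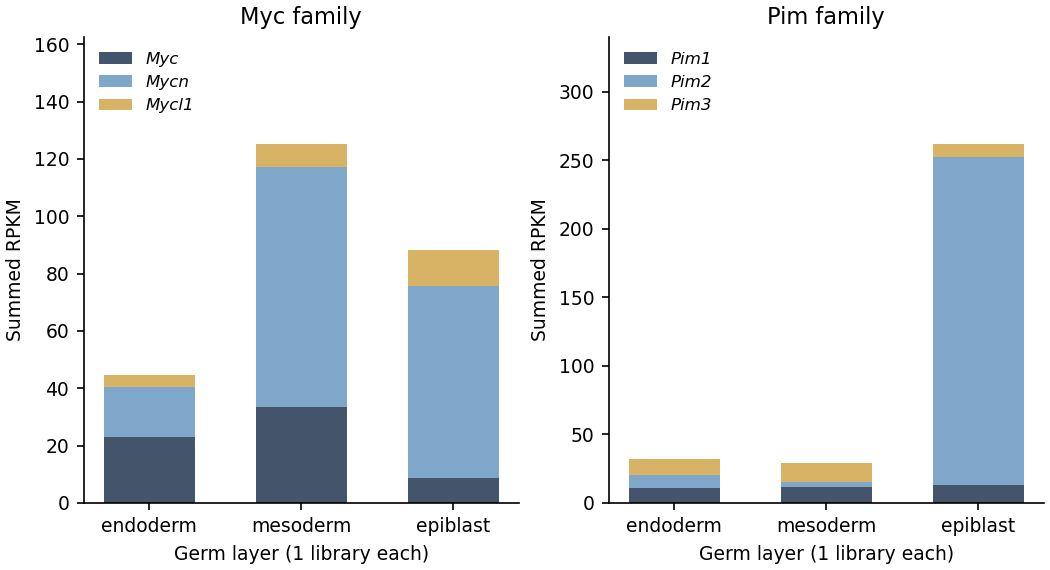
Summed RPKM of *Myc*, *Mycn* and *Mycl1* (left) and of *Pim1*, *Pim2* and *Pim3* (right) in 1 library per germ layer, on linear axes with different ranges. *Mycn* fills 67.1% and 75.8% of the left bars of mesoderm and epiblast, and *Pim2* fills 91.5% of the right bar of epiblast.

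The criteria of the study for a differentially expressed gene were RPKM>5 in at least 1 library of the pair, Fold Change>2 and FDR<0.001. They compare the reads of 2 libraries and not replicated conditions, and the calls of the 6 genes are given as a description of how they were chosen. All 6 genes were over the RPKM criterion in every pair. Between endoderm and mesoderm 2 of 6 genes passed, beside 23.0% of the 8867 genes tested. These were *Pim2*, higher in endoderm as were 14.4% of the genes tested, and *Mycn*, higher in mesoderm as were 8.56%. Between endoderm and epiblast 3 of 6 passed, beside 24.6% of 8843. *Myc* was among the 15.7% higher in endoderm, and *Mycn* and *Pim2* were among the 8.94% higher in epiblast. Between mesoderm and epiblast 2 of 6 passed, beside 10.3% of 8340, with *Myc* among the 5.30% higher in mesoderm and *Pim2* among the 5.02% higher in epiblast. In at least 1 of the 3 pairs, 3 of the 6 genes and 31.5% of the 9135 genes tested passed. *Pim2* passed in all 3 pairs, as did 1.99% of the genes tested. Its call between endoderm and mesoderm was lost with RPKM>10, with Fold Change>4 and with edgeR at an assumed coefficient of 0.2 or 0.4. Both calls of *Myc* were lost with Fold Change>4 and at 0.4, and the one against endoderm also at 0.2. For *Mycn*, the call between endoderm and epiblast was lost with Fold Change>4 and at 0.4. Its call between endoderm and mesoderm was lost at 0.4. *Max*, *Pim1* and *Pim3* passed in none of the pairs. The median size of the log2 ratio over the 6 genes was 0.41, 0.84 and 0.51 in these pairs in turn, beside 0.46, 0.51 and 0.22 over all genes tested.

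**Figure D3:**
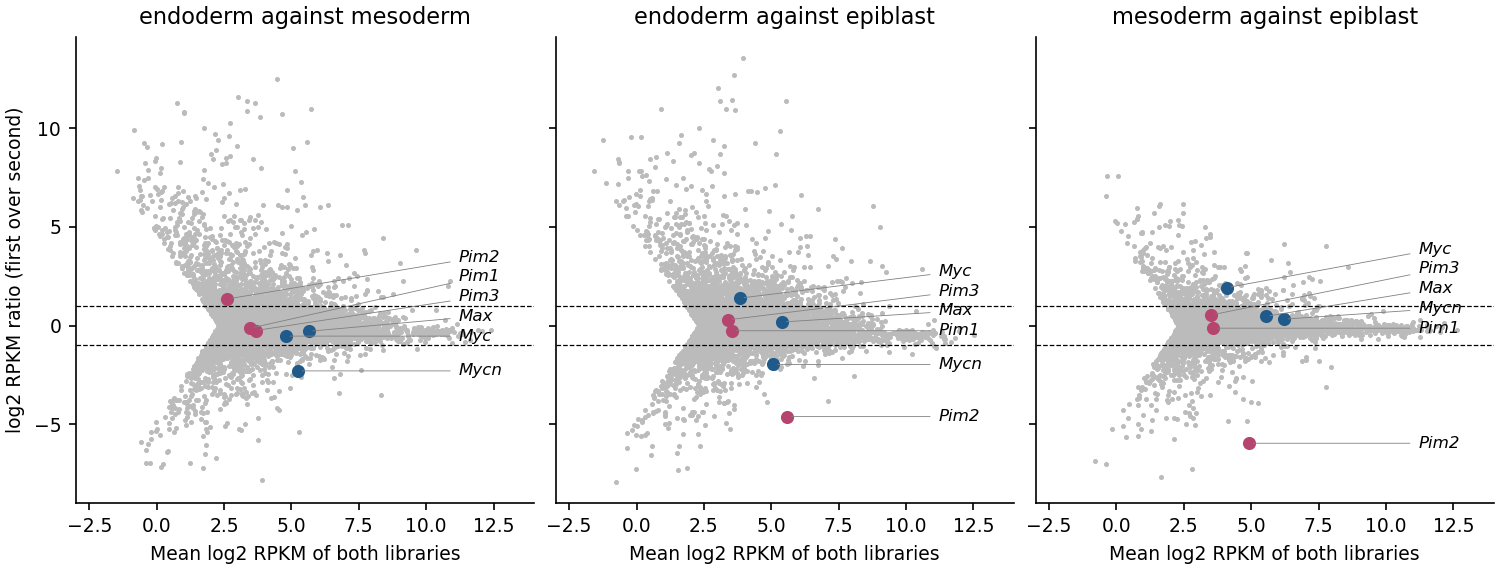
log2 RPKM ratio (vertical) against mean log2 RPKM (horizontal) in each pair of libraries for genes with RPKM>5 in 1 of the pair and more than 3 reads in both, with the *Myc*, *Mycn* and *Max* points in blue, the *Pim* points in red and dashed lines at a 2-fold ratio. *Pim2* lies at -4.60 and -5.95 in the pairs with epiblast, while *Max*, *Pim1* and *Pim3* lie between the dashed lines in all 3 pairs.

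*Pim2* is X-linked, and its nearest protein-coding genes on both sides had reads. *Slc35a2*, a transporter of UDP-galactose that begins 596 bases past the end of *Pim2*, had an RPKM of 10.9, 6.23 and 7.15 in endoderm, mesoderm and epiblast. *Otud5*, a deubiquitinase gene 1636 bases before *Pim2*, had 29.2, 37.3 and 44.0. Neither came near the ratios of *Pim2*, and *Kcnd1*, a potassium channel gene, and *Pqbp1*, a gene of a splicing-related protein, lay between 1.39 and 2.62 and between 44.3 and 74.2. Over the X-linked genes with RPKM>5 and reads in both libraries, the median log2 ratio of mesoderm against epiblast was 0.05, beside 0.02 over the other genes. Endoderm against epiblast gave -0.02 beside -0.08.

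**Figure D4:**
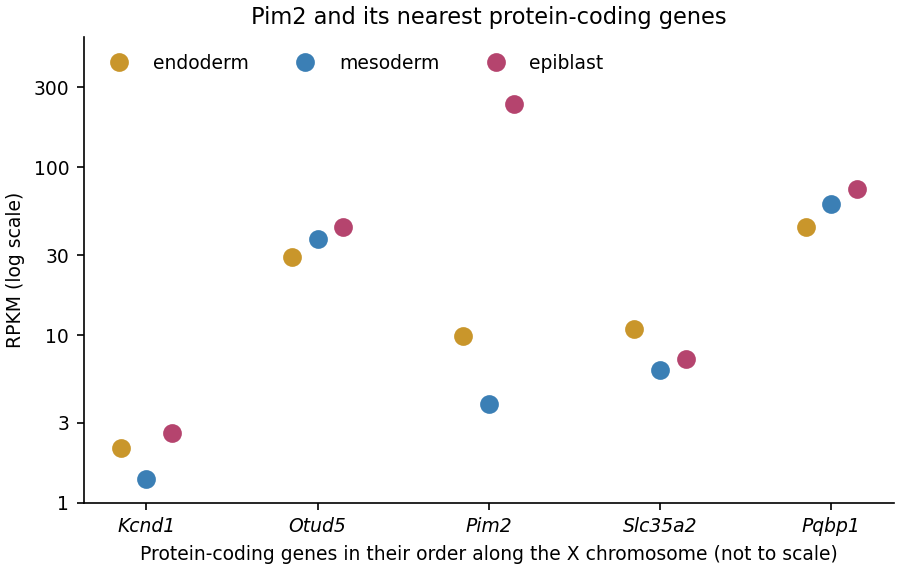
RPKM (log axis) of *Pim2* and of the 2 nearest protein-coding genes on each side, in their order along the X chromosome, in 1 library per germ layer. The epiblast point of *Pim2* stands at 239, while no neighbour exceeds 74.2 and each stays within 2-fold between layers.

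Next to *Mycn*, *Ddx1*, an RNA helicase gene, had an RPKM of 95.3, 126 and 135 in endoderm, mesoderm and epiblast. *Nbas* beyond it had 6.24, 6.65 and 5.37. *Fam49a* on the other side was under RPKM 5 in all layers, with 0.808, 2.71 and 3.55. *Ddx1* and *Fam49a* were lowest in endoderm, as *Mycn* was, but highest in epiblast. Of the neighbours of *Myc*, *A1bg*, *Gsdmc* and *Gsdmc2* had no entry in any library. *Fam84b*, 1131613 bases away, had 24.2, 2.002 and 6.92, and therefore not the order of *Myc*. Beside *Max*, *Fntb*, a farnesyltransferase subunit gene, had 18.5, 19.3 and 21.2 and *Fut8* had 11.9, 14.7 and 10.3, while *Rab15* had 18.0, 3.22 and 6.99. *Creld2*, next to *Pim3*, had 70.0, 36.6 and 34.5, and *Alg12* beyond it had 9.85, 5.33 and 4.14. Near *Pim1*, *Mtch1* had 68.6, 69.5 and 66.8, and *Fgd2* was under RPKM 5 in all layers.

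The genes whose levels ran most like each member over the 3 libraries were found among 9096 genes with RPKM>5 in at least 1 library and reads in all 3. *Phldb2*, at 23.8, 33.1 and 9.12 RPKM, *Greb1l* and *Fgfr3*, a receptor of FGF ligands, came closest to *Myc*. For *Mycn* these were *Efna1*, an ephrin ligand gene at 2.64, 12.0 and 10.1 RPKM, *Stk39* and *Gjc1*, a connexin gene. Within a distance of 0.5 on the log2 scale lay 45 genes for *Myc* and 96 for *Mycn*. *Max* had 3691 genes within that distance, *Pim1* 4823 and *Pim3* 3183, led by *Fam193a*, *Zfp639* and *Ndc80*, by *Rnf138*, *Fbxo38* and *Zw10*, and by *Rap1gds1*, *D3Ertd254e* and *Ube2e2*. *Pim2* had 0 genes within 0.5. Those nearest to it were *Mcf2* at a distance of 0.77, *Dlx5*, a homeobox factor gene, at 0.78, and *Dtx1*, a Notch pathway gene, at 1.09. All 3 had an RPKM under 0.5 in endoderm and mesoderm, unlike *Pim2*, and between 8.57 and 11.6 in epiblast.

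The partners of the MYC proteins were taken from the network of MAX and MLX. *Mycl*, the third *Myc* gene, was the 1 of 7 genes over RPKM 5 that passed, out of 10 in the list, beside 31.5% of all genes in at least 1 pair. Its RPKM was 4.24, 7.79 and 12.5, and it passed as higher in epiblast than in endoderm. *Mnt* and *Mga*, which pair with MAX against MYC, stayed between 5.80 and 7.35 and between 9.91 and 11.4. Of the 11 genes of MYC turnover, all tested, 1 passed, beside the same 31.5%. It was *Usp28*, a deubiquitinase of MYC, with 7.20, 10.04 and 27.9 RPKM. It was highest in epiblast, the layer where *Myc* was lowest. *Fbxw7*, the ubiquitin ligase subunit for MYC, had 6.17, 9.42 and 10.3 and did not pass. Of 12 cofactors, again beside 31.5%, 1 passed, *Ruvbl2*, an ATPase gene of chromatin complexes, with 94.2, 159 and 199, and it did not pass with TMM library sizes.

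MYC-activated targets, mostly genes of ribosome production and growth, differed little between mesoderm and epiblast. Their median log2 ratio in that pair was -0.04, beside 0.02 over all genes tested. Of the 31, 20 were lower in mesoderm, beside 47.3% of all genes tested, and 0 passed, beside 10.3% of all genes. The largest fold of the list in this pair was 1.54, for *Ccnd2*, which is under the 2-fold criterion. With edgeR at an assumed coefficient of 0.2 or 0.4 the count could therefore only be 0 of 31 again. It was 443 and 60 of the 8340 genes. In the same pair mesoderm was above epiblast by 3.79-fold for *Myc*, 1.26-fold for *Mycn* and 1.42-fold for the summed *Myc* family. Against mesoderm, endoderm was lower for 30 of 31, with a median of -0.50 beside -0.10 over all genes, and 56.0% of all genes tested were lower. Against epiblast it was also lower for 30 of 31, with a median of -0.53 beside -0.08 and 54.0% of all genes. Both comparisons use the same endoderm library. With TMM library sizes the medians of all genes moved to 0.02 and 0.04, those of the list to -0.38 and -0.42, and 29 of 31 were lower in both. *Ccnd2*, the cyclin D2 gene, was the 1 gene of the list to pass, beside 31.5% of all genes in at least 1 pair. It had 17.8, 53.4 and 34.7 RPKM in endoderm, mesoderm and epiblast and passed as higher in mesoderm than in endoderm. This call was lost with Fold Change>4 and with edgeR at 0.2 or 0.4. Picked after their values were seen, *Npm1*, a nucleolar chaperone gene, had 2059, 3672 and 3752, and *Srm*, the spermidine synthase gene, was the 1 gene higher in endoderm, with 175, 164 and 138.

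Of the 7 MYC-repressed targets, endoderm was the highest layer for 3, mesoderm for 1 and epiblast for 3. Of the 5 tested, 4 passed in at least 1 pair, beside 31.5% of all genes, but *Ndrg2* and *Gadd45a* were over RPKM 5 in epiblast alone and *Pdgfrb* in mesoderm alone, so nothing is read from the count. *Ndrg2*, a growth-restraining gene, had 0.991, 3.16 and 23.8 RPKM in endoderm, mesoderm and epiblast. *Cdkn1a*, the p21 cell cycle inhibitor gene, had 7.42, 3.67 and 17.2, and *Gadd45a*, a stress response gene, had 3.61, 3.46 and 6.98. These 3 were highest in epiblast, while *Pdgfrb*, a PDGF receptor gene, had 0.639, 10.2 and 3.20 and was highest in mesoderm. *Ndrg1* was the 1 gene tested that did not pass, with 11.3, 8.10 and 7.57. *Cdkn2b*, with 0.948, 0.281 and 0.101, and *Thbs1*, with 2.22, 0.987 and 0.618, were under RPKM 5 in all layers and, like *Ndrg1*, highest in endoderm.

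Of 16 genes of the JAK-STAT pathway upstream of the *Pim* genes, which include its inhibitors *Socs1*, *Socs2*, *Socs3*, *Cish* and *Pias3*, endoderm was the highest layer for 7, mesoderm for 6 and epiblast for 3. The 3 highest in epiblast were *Socs2*, *Socs3* and *Pias3*, all inhibitors, while the inhibitors *Socs1* and *Cish* were highest in mesoderm. *Socs2* had 17.6 RPKM in mesoderm and 18.3 in epiblast, and *Pias3* had 5.37 and 6.34. *Socs3* was under RPKM 5 in all layers. Of the 10 tested, 7 passed in at least 1 pair, beside 31.5% of all genes. *Jak2*, *Stat3* and *Stat5b* were over RPKM 5 in endoderm alone and *Lifr* in mesoderm alone, so the RPKM criterion itself favours their calls and nothing is read from the count. Of 9 tested between endoderm and epiblast, 4 passed as higher in endoderm and 1 as higher in epiblast. Over all genes these shares were 15.7% and 8.94%. Of 6 tested between mesoderm and epiblast, 3 passed as higher in mesoderm and 0 as higher in epiblast. Over all genes these shares were 5.30% and 5.02%. The same limit holds for these directions, so nothing is read from them. *Stat3* had 15.8, 3.39 and 1.69 RPKM in endoderm, mesoderm and epiblast, *Jak2* had 8.88, 2.93 and 1.13, and *Stat5b* had 9.23, 3.22 and 2.17, all highest in endoderm. *Lifr*, the LIF receptor gene, was highest in mesoderm, with 4.07, 5.61 and 1.07. *Il6st*, the gene of the shared receptor subunit gp130, and *Jak1* also passed. *Socs2*, a feedback inhibitor, was the 1 gene that passed as higher in epiblast, against endoderm. *Socs2* also passed as higher in mesoderm than in endoderm.

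PIM substrates and their chaperones gave 5 genes that passed of 18 tested and 21 listed, or 27.8%, a share near the 31.5% of all genes. *Myb* had 0.324, 0.441 and 7.02 RPKM in endoderm, mesoderm and epiblast and was highest in epiblast, as *Pim2* was. *Myb* was over RPKM 5 in epiblast alone, so the RPKM criterion itself favours its call. *Cdkn1a*, also in the list above, *Foxo1*, with 6.11, 3.85 and 9.89, and *Foxo3*, with 4.20, 9.36 and 8.49, passed as well. *Akt1s1*, which codes for PRAS40, was highest in endoderm, with 56.6, 40.3 and 27.8. *Bad*, whose product PIM kinases inactivate, had 11.6, 7.62 and 6.37 and did not pass. In the AKT and mTOR pathway, which shares substrates with PIM, 3 of 17 tested passed out of 19. *Sgk1* was highest in endoderm, with 55.6, 11.6 and 9.36, and *Eif4ebp1*, the 4E-BP1 gene, was highest in mesoderm, with 88.3, 191 and 123. Over all 8 lists, 22 of 109 genes tested passed in at least 1 pair, or 20.2%, beside 31.5% of all genes.

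**Figure D5:**
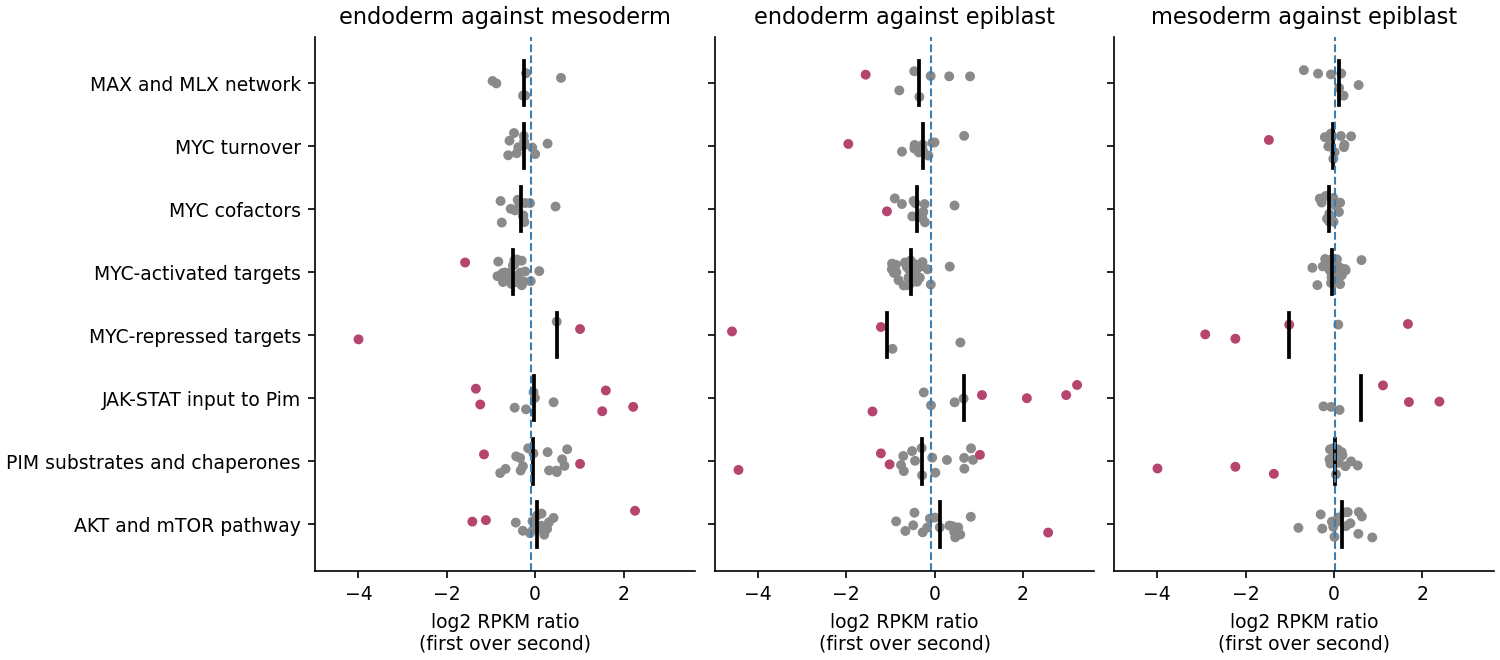
log2 RPKM ratio (horizontal) of each tested gene of the 8 lists in the 3 pairs of libraries, with genes that met the criteria in red, the others in grey, a black bar at the median of the list and a dashed blue line at the median of all genes tested. In both pairs with endoderm, 30 of the 31 MYC-activated targets lie below 0, and the medians of this list are -0.50 and -0.53. Between mesoderm and epiblast the median of this list lies close to the dashed line.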

How the data were processed

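Reads of 3 libraries, 1 per germ layer from pooled RNA, were sequenced by the authors, who deposited for each gene the count of uniquely mapped reads, without normalization, the gene length, the percent of that length covered and the RPKM. TopHat and the builds mm9 and mm10 are listed in the submitters' processing notes. The annotation and counting program of the gene table are not given in the sources used here. Deposited RPKM was recomputed from counts, lengths and library totals with a largest relative difference of 2.03e-07, and it was used unscaled. Where a gene had no entry for a library, 0 reads were assumed, and such a 0 allows up to 3.

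The members and lists were chosen with earlier results of these data known. With 1 library per layer no dispersion can be estimated and a quasi-likelihood fit in edgeR was not possible. Calls therefore used the criteria of the study, with p-values from the Audic and Claverie exact test (two-sided, on counts) and Benjamini-Hochberg adjustment over all genes with a read in either library. edgeR's exact test with an assumed coefficient of 0.2 or 0.4 was an alternative, among 14 in all. Both tests were tested on simulated data. Intervals of ratios are exact binomial (Clopper-Pearson) at 95% and those of levels exact Poisson, for counting error only. Named were the 6 members, the 4 genes with the largest folds among those called in each list, any list gene without reads in all libraries (there was none), the 3 genes most alike to each member and the 2 nearest protein-coding genes on each side. Some genes were named after their values were seen, to show the range of a list. *Mycl* and *Cip2a* were matched through older symbols. Coding sequences were aligned globally from GENCODE M21 transcripts. The software was R 4.3.3 with edgeR 4.0.16, and Python 3.11.15 with SciPy 1.17.1, numpy 2.4.6, pandas 2.3.3, Biopython 1.88 and matplotlib 3.10.9. Splicing, microarray and qPCR data and protein sequences were not analysed here. Values of some genes of the lists are not reported here.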

Additional observations from a re-analysis of the deposited data

How the results depend on the processing

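No log2 ratio of the 6 genes changed sign under another scaling of the libraries (TMM, median of ratios, same upper quartile) or a pseudocount of 1. The members called stayed *Mycn* and *Pim2*, *Myc*, *Mycn* and *Pim2*, and *Myc* and *Pim2* in the 3 pairs under these settings, under RPKM>1 or no RPKM criterion, Fold Change>1.5, no FDR criterion and Benjamini-Yekutieli adjustment. With RPKM>10, *Pim2* was lost between endoderm and mesoderm, where 1 member was left. With Fold Change>4, 1 member was called in each pair, *Mycn* between endoderm and mesoderm and *Pim2* in both others. With edgeR and an assumed coefficient of 0.2, the pairs had 1, 2 and 2 members called, with *Pim2* lost between endoderm and mesoderm and *Myc* between endoderm and epiblast. At 0.4 they had 0, 1 and 1, with *Pim2* the 1 member called in both pairs with epiblast. The list genes called in at least 1 pair were 22 with the criteria of the study, 14 with RPKM>10, 9 with Fold Change>4, 48 with Fold Change>1.5, and 11 and 3 with edgeR at 0.2 and 0.4. Of the MYC-activated targets 13 were called with Fold Change>1.5 instead of 1. Over all genes, 2038, 2176 and 861 were called in the 3 pairs, and 3375, 3561 and 1841 with RPKM>1, 4676, 4854 and 2769 with no RPKM criterion, 936, 898 and 334 with Fold Change>4, 3539, 3920 and 1560 with Fold Change>1.5, 1199, 1235 and 443 with edgeR at 0.2, and 387, 331 and 60 at 0.4. With RPKM>10, 525 were called between mesoderm and epiblast. *Ruvbl2* was not called with TMM or the median of ratios. Without the gene length, shares of the paralogs moved by up to 6.82 percentage points.

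With 1 library per layer, differences between embryos or dissections were not measured, and the counting intervals do not hold them. No paired analysis was possible because each layer had 1 library.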
